A study of Mus musculus with 2 samples.

Results

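The nuclear receptor superfamily was described by 46 genes, matched by gene symbol among the 55536 genes of the deposited tables, and ranked by level and by isoform in the mouse adrenal gland. All 46 symbols matched 1 gene each, and the matching itself used no measured value.

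Nuclear receptors are transcription factors, many of which bind a small fat-soluble ligand such as a steroid, thyroid hormone, retinoic acid, an oxysterol or a bile acid. A typical member joins a DNA-binding domain of zinc fingers to a ligand-binding domain, and binds its response element alone, as a homodimer or with a retinoid X receptor, then recruits coactivators or corepressors. In the adrenal cortex the orphan receptor SF-1, product of Nr5a1, is needed for the gland to form and drives the genes of steroid synthesis. The gland also makes the corticosteroid ligands of the glucocorticoid and mineralocorticoid receptors, products of Nr3c1 and Nr3c2.

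Total RNA was sequenced from adrenal glands of adult female mice aged 8 to 10 months, from a cross of 5xFAD with CAST. The 5xFAD line carries human transgenes of familial Alzheimer's disease under the neuronal Thy1 promoter, and CAST is an inbred strain derived from wild mice. There was 1 group with 2 biological replicates, called mouse 1 and mouse 2 as they are numbered in the labels. The labels give a single donor identifier for both, so any difference between them may be technical. Whether each animal carried the transgenes was not checked, and no animals without them were analysed here. Each library was made from 300 ng of RNA. The libraries held 36558609 and 32192201 expected counts in genes. Without a second group no condition could be compared, so the levels of the receptors, the 2 libraries and 2 quantifications of each library are described.

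The gland was checked by its markers. The 9 cortex markers and the 9 chromaffin cell markers all reached 1 TPM, a level per transcript length scaled to the same sum in each library, in both mice, led by Star (5127 and 5742 TPM) and Chga (751 and 703 TPM). None of 7 hepatocyte and 7 kidney tubule markers did, and 1 of 7 ovary markers did. The 12 adipocyte markers summed to 1737 TPM in mouse 1 but 2896 in mouse 2. In bulk tissue, fewer cells of a type and less RNA per cell cannot be told apart.

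Of the 46 receptor genes, 33 reached 1 TPM in both mice, or 71.7%, beside 54.1% of nuclear protein-coding genes. The 33 had a median of 9.64 TPM, beside 10.3 TPM for the coding genes that reached 1 TPM. Together the 46 genes took 932 TPM in mouse 1 and 938 in mouse 2. Nr5a1 and Nr4a1 alone held 52.5% and 46.1% of that sum. A further 14 genes had means of 10 TPM or more, so 16 receptors stood at that level, and each of the 16 reached 10 TPM in both mice. Rara reached it in mouse 1 alone and Pparg in mouse 2 alone. At the other end 12 genes stayed under 0.5 TPM in both mice, and Rxrg lay between, at 0.83 and 1.55 TPM.

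**Figure D1:**
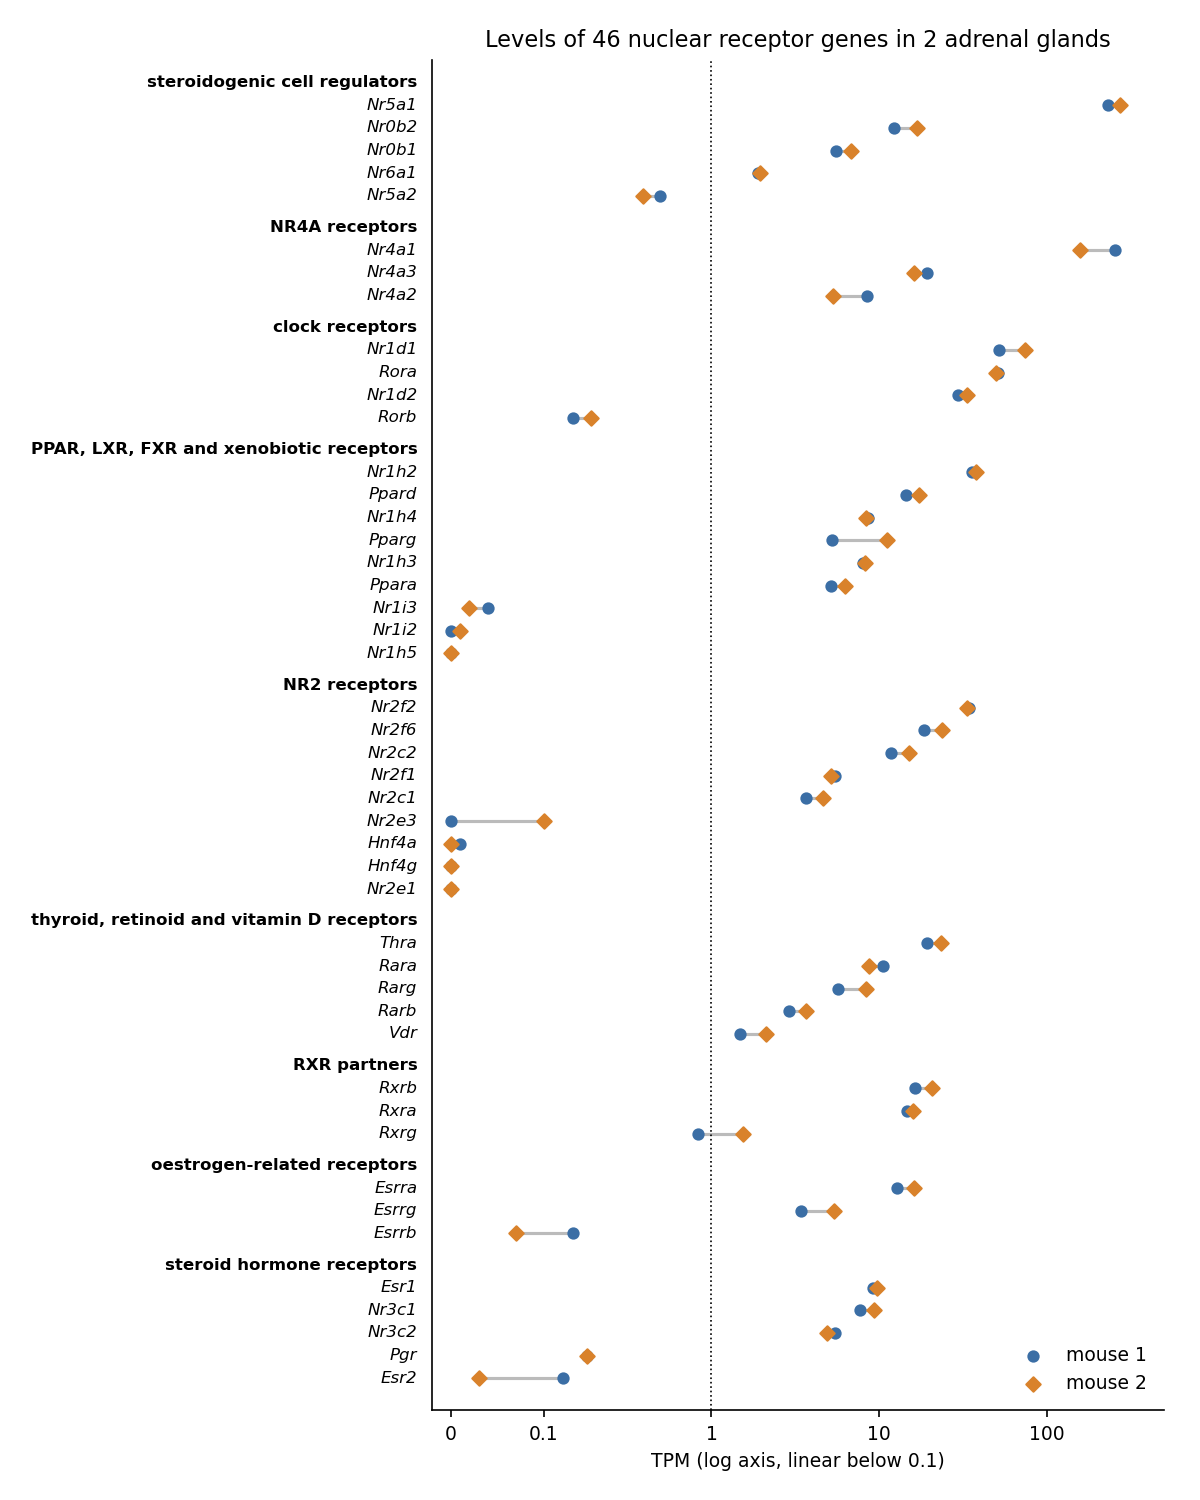
Level of each of the 46 genes in TPM, on a log axis that is linear below 0.1, with a circle for mouse 1 and a diamond for mouse 2, grouped by role. The dotted line marks 1 TPM. Nr5a1 and Nr4a1 stand apart from the rest, above 158 TPM in both mice, while 12 genes stay under 0.5 TPM.

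The receptors share the first zinc finger of the DNA-binding domain, and its coding sequence is shown for 6 of the abundant ones because a few bases there sort the family. The pattern of 4 cysteines spaced by 2, 13 and 2 residues occurred in 44 of the 46 genes and in 399 of 21782 coding genes (1.83%). The exceptions were Nr0b1 and Nr0b2, which encode DAX-1 and SHP, known to lack a DNA-binding domain. Each stretch below begins at the codon of the first cysteine, with in capitals the 5 codons after the third cysteine that hold the P-box, the residues that read the response element. The reference is mm10 with GENCODE M21 transcripts. Alleles of the CAST strain are not represented in it.
Nr5a1: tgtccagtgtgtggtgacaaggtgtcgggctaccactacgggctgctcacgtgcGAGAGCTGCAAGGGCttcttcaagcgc
Nr4a1: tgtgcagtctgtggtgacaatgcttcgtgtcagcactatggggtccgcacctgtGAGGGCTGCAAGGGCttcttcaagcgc
Nr1d1: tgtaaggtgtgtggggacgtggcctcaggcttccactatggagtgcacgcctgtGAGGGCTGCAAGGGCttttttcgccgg
Rora: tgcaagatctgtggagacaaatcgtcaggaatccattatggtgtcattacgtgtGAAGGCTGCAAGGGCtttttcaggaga
Esrra: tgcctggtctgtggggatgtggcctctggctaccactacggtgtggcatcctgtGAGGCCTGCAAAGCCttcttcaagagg
Nr2f2: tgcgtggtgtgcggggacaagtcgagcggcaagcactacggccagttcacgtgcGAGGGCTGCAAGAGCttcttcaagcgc
The stretches lie at chr2:38710537-38710721 (Nr5a1, minus strand), chr15:101270892-101271738 (Nr4a1, plus), chr11:98771330-98771502 (Nr1d1, minus), chr9:69348152-69361753 (Rora, plus), chr19:6920073-6920153 (Esrra, minus) and chr7:70360015-70360095 (Nr2f2, minus). Those of Esrra and Nr2f2 lie in 1 exon, and the others cross an intron. Over all 44 genes the 5 residues fell into 9 classes. The largest class held 27 genes, among them Nr4a1, Nr1d1, Rora, Thra and every RAR, RXR, PPAR and LXR gene. Nr5a1 shared its class only with Nr5a2. The 3 oestrogen-related receptors formed a class, as did Nr2f1, Nr2f2 and Nr2f6, and Nr3c1, Nr3c2 and Pgr. Esr1 and Esr2 formed another, as did Hnf4a and Hnf4g, while Nr2e1 and Nr2e3 each stood alone.

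Nr5a1 was the most abundant receptor by mean level. Mouse 1 had 232 TPM and mouse 2 had 274, a mean of 253 ± 29.6 TPM (SD, n = 2), and ranked 132 among nuclear protein-coding genes (chr2:38692656-38714542, minus strand). The ranges of Nr5a1 and Nr4a1 over the mice overlapped, so the order of these top 2 was not fixed: Nr4a1 led in mouse 1 and Nr5a1 in mouse 2. Nr0b2, which encodes SHP, a corepressor that binds other receptors, stood at 12.2 and 16.8 TPM. Nr0b1, which encodes DAX-1, a repressor of SF-1 activity, stood at 5.56 and 6.82 TPM. Nr6a1 followed at 1.89 and 1.94 TPM. Nr5a2, which encodes LRH-1, the close relative of SF-1, stood at 0.49 and 0.39 TPM, with 68 and 41 counts. The gland thus held Nr5a1 RNA at a level per length above that of every other member but Nr4a1, and Nr5a2 under 0.5 TPM in both mice.

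The NR4A genes encode orphan receptors that are themselves immediate early genes, and NUR77, product of Nr4a1, is induced in adrenal cells by corticotropin. Nr4a1 was measured at 257 TPM in the first mouse and 158 in the other, a mean of 208 ± 69.6 TPM (SD, n = 2). Nr4a3, which encodes NOR-1, stood at 19.3 and 16.1 TPM. Nr4a2, which encodes NURR1, stood at 8.52 and 5.29 TPM. All 3 were higher in mouse 1, and the NR4A genes held 30.5% of the receptor TPM in mouse 1 and 19.2% in mouse 2.

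The clock receptors came next. REV-ERBalpha and REV-ERBbeta, products of Nr1d1 and Nr1d2, repress clock genes, and ROR proteins activate them from the same response elements. Nr1d1 stood at 51.9 and 73.6 TPM (chr11:98767932-98775333, minus strand). Rora stood at 51.3 and 49.5 TPM (chr9:68653786-69388246, plus strand). Nr1d2 stood at 29.6 and 33.4 TPM, and Rorb, best known from brain and retina, at 0.15 and 0.19 TPM. Thus 3 of the 4 clock receptors were among the 7 most abundant members. The time of day of dissection is not given in the sources used here.

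Receptors of fatty acids, sterols and bile acids were led by Nr1h2. It encodes LXRbeta, an oxysterol sensor found in most tissues, and stood at 35.6 and 37.8 TPM. Its paralogue Nr1h3, which encodes LXRalpha, stood at 8.03 and 8.22 TPM, below the range of Nr1h2. Ppard stood at 14.5 and 17.4 TPM, and Ppara, the fatty acid sensor of oxidative tissues, at 5.18 and 6.23 TPM. Pparg, the receptor that drives fat cell formation, stood at 5.24 and 11.2 TPM, 8.23 ± 4.22 TPM (SD, n = 2). Nr1h4, which encodes the bile acid receptor FXR, was present at 8.59 and 8.37 TPM, with 666 and 523 counts. The xenobiotic receptors of the liver were near the floor: Nr1i3 (CAR) had 2 and 1 counts, Nr1i2 (PXR) had 0 and 1, and Nr1h5 had 0 in both. Where no read was counted, counting error alone still allows a level of 0.0821 CPM (counts scaled to library size) in mouse 1 and 0.0932 CPM in mouse 2. Nr1h4 is also a liver gene. Of the hepatocyte markers, Alb had 36 and 113 counts, Ttr 10 and 17, Apoa1 15 and 7, and Cyp3a11 was at 0 in both mice.

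Among the NR2 receptors, the COUP-TF gene Nr2f2 stood at 34.2 and 33.6 TPM and Nr2f6 at 18.6 and 23.8 TPM. Nr2f1, which encodes COUP-TFI, stood at 5.48 and 5.19 TPM. The testicular receptor genes Nr2c2 and Nr2c1 stood at 11.8 and 15.1 TPM, and at 3.66 and 4.60 TPM. Hnf4a, a regulator of hepatocytes, had 1 and 0 counts. Nr2e3, a photoreceptor gene, had 0 and 3, and Hnf4g and Nr2e1 had 0 in both mice. In this group 5 of 9 genes reached 1 TPM in both mice.

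All 5 receptors of thyroid hormone, retinoic acid and vitamin D counted here reached 1 TPM in both mice. Thra stood at 19.3 and 23.4 TPM. Of the retinoic acid receptors, Rara stood at 10.6 and 8.70 TPM, Rarg at 5.70 and 8.34 TPM and Rarb at 2.92 and 3.64 TPM. Vdr, the vitamin D receptor gene, was the lowest at 1.49 and 2.12 TPM. Their partners followed with Rxrb at 16.4 and 20.6 TPM, Rxra at 14.7 and 15.95 TPM, and Rxrg at 0.83 and 1.55 TPM. The ranges of Rxra and Rxrb did not overlap, but their SDs, 0.856 and 3.01 TPM, were each larger than the gap between the highest Rxra and the lowest Rxrb value.

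The oestrogen-related receptors are orphan regulators of mitochondrial genes. Esrra stood at 12.8 and 16.1 TPM, Esrrg at 3.44 and 5.35 TPM and Esrrb at 0.15 and 0.07 TPM. Among the steroid receptors, Esr1, which encodes oestrogen receptor alpha, stood at 9.17 and 9.75 TPM. Its paralogue Esr2 stood at 0.13 and 0.03 TPM, with 16 and 3 counts. The glucocorticoid receptor gene Nr3c1 stood at 7.64 and 9.37 TPM and the mineralocorticoid receptor gene Nr3c2 at 5.48 and 4.91 TPM, so the ranges of this pair did not overlap. The progesterone receptor gene Pgr stood at 0.18 TPM in both mice. The receptors of the gland's own steroids were thus expressed at levels per length far under that of Nr5a1.

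Ordered by mean TPM, 23 of the 32 neighbouring pairs among the 33 genes overlapped in their ranges over the mice, so most single steps in the ranking were within the spread. The second quantification, made by the authors from the reads and a transcript index, gave mean levels of 0.784 to 1.43 times the first for these 33 genes. It also put 33 genes at 1 TPM or more in both mice. For 44 of the 46 genes the deposited posterior SD of the count was 0 in both libraries, the exceptions being Nr1d2 and Nr2c2, so nearly all reads were assigned to these genes without sharing.

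The libraries were then compared by the log2 ratio of mouse 2 to mouse 1, from expected counts scaled by TMM, for genes that averaged 10 counts or more. This kept 38 members. The 8 left out were Esr2, Nr2e3, Nr1i3, Hnf4a, Nr1i2, Hnf4g, Nr1h5 and Nr2e1. No member was 2-fold or more apart in either direction, where 1.15% of all 17666 genes tested were 2-fold or more higher in mouse 2 and 1.81% lower. A ratio was called beyond counting noise by an exact binomial test on the 2 libraries, adjusted by Benjamini-Hochberg over all genes tested. That test compares these 2 libraries and not conditions. By it 10 members were higher in mouse 2, where the background was 10.4% of all genes, and 5 were lower, where the background was 11%. The members had a median of 765 counts, beside 420 for all genes tested, and more counts let smaller ratios pass. Of the 38 ratios, 25 lay above 0 and 13 below, with a median of 0.06 beside -0.0011 for all genes tested.

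**Figure D2:**
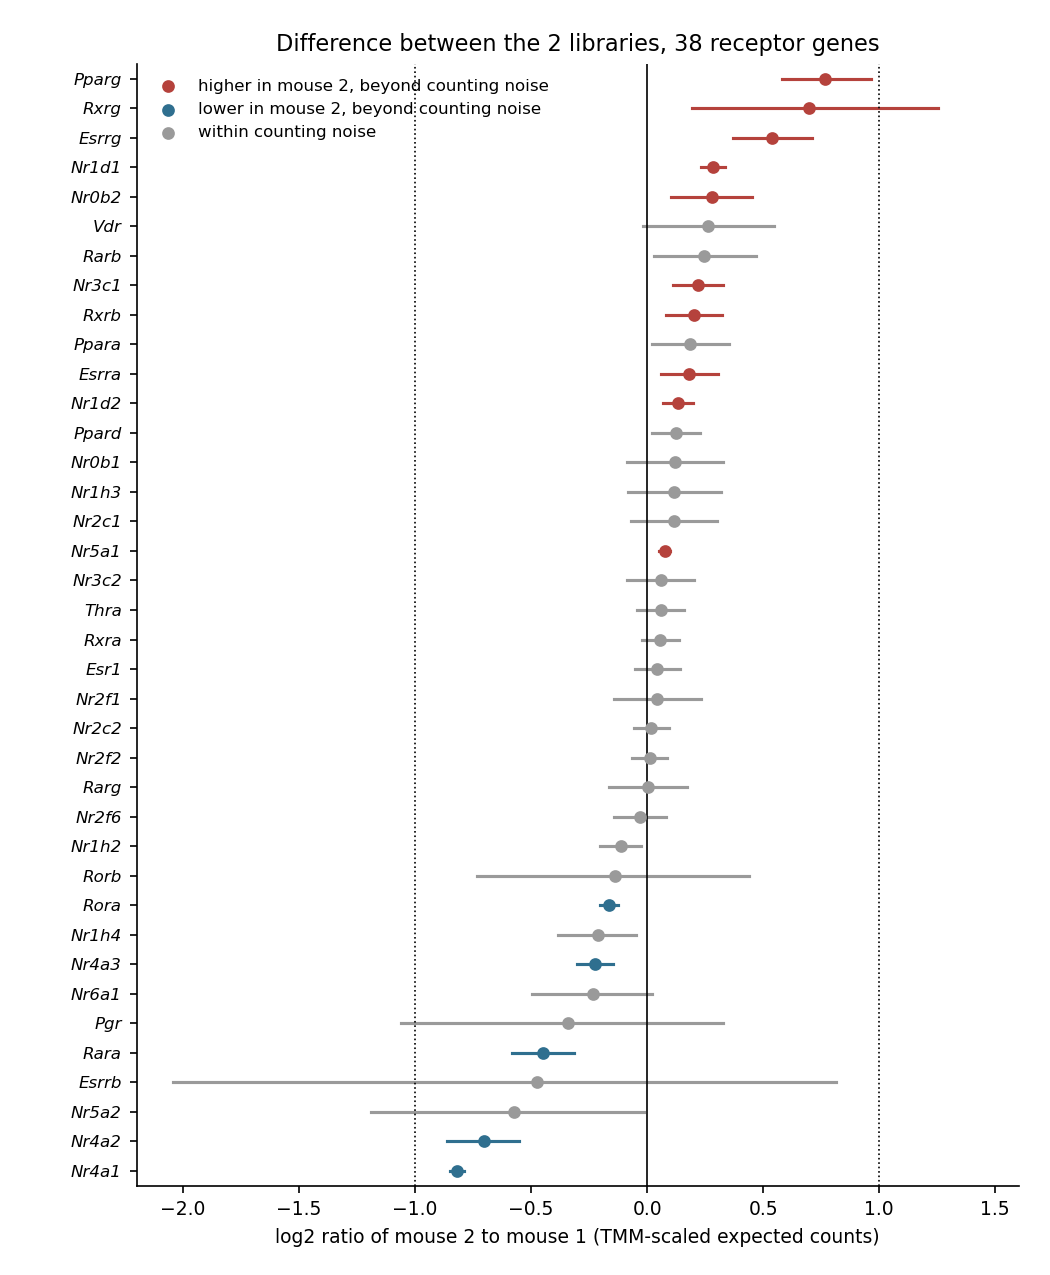
Log2 ratio of mouse 2 to mouse 1 for the 38 receptor genes tested, with lines for the exact 95% interval of counting error and dotted lines at 2-fold. The 3 NR4A genes are all on the side of mouse 1, and Pparg, Rxrg and Esrrg stand highest on the side of mouse 2. No point lies beyond 2-fold, and the intervals are widest for Esrrb, Pgr, Nr5a2, Rorb and Rxrg, which had at most 78 counts in a library.

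All 3 NR4A genes were lower in mouse 2 beyond counting noise, and Nr4a1 and Nr4a2 had the 2 lowest ratios of the 38. Nr4a1 had 23797 counts in mouse 1 and 12293 in mouse 2, a log2 ratio of -0.82 (95% counting interval -0.85 to -0.79). Nr4a2 had 956 and 534 counts, at -0.70 (-0.86 to -0.55), and Nr4a3 had 3205 and 2498, at -0.22 (-0.30 to -0.15). A list of 16 other immediate early genes lay on the same side, with 15 ratios below 0, 11 lower and 0 higher beyond counting noise and a median of -0.66. Its most abundant members were Fosl2 at -0.05, Jun at -0.28 and Junb at -2.72, and Egr1 (-2.44) and Fos (-3.15) were also over 2-fold lower, while Fosl1 (8 and 17 counts) stood at 1.04. Whether the ratios of the NR4A genes and of this list share a source was not tested.

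The promoters of the NR4A genes are shown because these 3 members moved together, and both the genes and the motif were picked with their values known. The half-site of the cAMP response element, TGACG or its reverse complement CGTCA, was searched on both strands in the 250 bases before each RefSeq start (GRCm38.p6). Each of the 3 NR4A promoters held 4 matches, a number reached by 45 of 32851 RefSeq promoters (0.137%). At least 1 match occurred in 17.8% of all promoters and in 12 of the 62 promoters of receptor genes (19.4%). A gene can have several promoters, and counted by gene it was 12 of the 42 receptor genes with an entry. The full palindrome TGACGTCA was in none of the 3. Matches are in capitals, and only bases outside annotated exons are printed, which leaves 3 of the 4 matches for Nr4a3.
Nr4a1: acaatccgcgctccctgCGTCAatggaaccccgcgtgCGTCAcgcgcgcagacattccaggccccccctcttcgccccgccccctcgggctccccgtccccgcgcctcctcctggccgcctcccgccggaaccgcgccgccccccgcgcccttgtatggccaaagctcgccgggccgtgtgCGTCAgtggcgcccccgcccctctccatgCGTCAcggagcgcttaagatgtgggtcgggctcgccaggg
Nr4a2: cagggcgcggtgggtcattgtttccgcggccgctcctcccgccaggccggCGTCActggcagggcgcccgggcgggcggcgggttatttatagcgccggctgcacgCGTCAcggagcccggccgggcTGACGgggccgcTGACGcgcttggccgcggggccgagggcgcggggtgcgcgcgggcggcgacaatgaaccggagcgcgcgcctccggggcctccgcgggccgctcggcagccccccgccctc
Nr4a3: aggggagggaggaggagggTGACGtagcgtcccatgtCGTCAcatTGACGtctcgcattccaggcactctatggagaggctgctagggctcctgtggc
They lie at chr15:101266596-101266845 (plus strand), chr2:57124004-57124253 (minus) and chr4:48045055-48045152 (plus). The start used for Nr4a1 is that of its leading transcript, Nr4a1-201. That of Nr4a2 is the start of Nr4a2-203 and Nr4a2-206, and lies 8965 bases from the start of the leading transcript, Nr4a2-201. That of Nr4a3 lies 152 bases from the start of Nr4a3-201. A match is a description of these letters and not a measured binding site. A further 2 motifs were counted in the same way. AGGTCA, the half-site bound by many nuclear receptors, was in 14.0% of all promoters and 16.1% of the 62 receptor promoters (9 of 42 genes). The E-box CACGTG was in 6.02% of all promoters and 6.45% of the 62 (4 of 42 genes). The genes without a promoter entry were Nr5a1, Nr3c1, Hnf4g and Thra.

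On the side of mouse 2, Pparg had 366 and 569 counts, a log2 ratio of 0.77 (95% counting interval 0.58 to 0.97). Rxrg had 52 and 78 counts, at 0.70 (0.19 to 1.26), and Esrrg had 501 and 663, at 0.54 (0.37 to 0.71). Adipocyte markers were higher in the same library: of 12, all had ratios above 0 and 11 were higher beyond counting noise, with a median of 0.66. Its most abundant members were Cfd at 0.33, Fabp4 at 0.61 and Car3 at 0.87. The part of fat tissue in the ratios of Pparg, Rxrg and Esrrg was not tested.

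The other members beyond counting noise differed less. Higher in mouse 2 were Nr1d1 at 0.28, Nr0b2 at 0.28, Nr3c1 at 0.22, Rxrb at 0.20, Esrra at 0.18, Nr1d2 at 0.13 and Nr5a1 at 0.08. Lower were Rara at -0.45, with 1142 and 762 counts, and Rora at -0.16. Nr5a1 passed with a small ratio at 26273 and 25214 counts (95% counting interval 0.05 to 0.10). The clock receptors thus split, both REV-ERB genes being higher in mouse 2 and Rora lower. None of the 5 NR2 receptors tested passed, and their ratios ran from -0.03 for Nr2f6 to 0.12 for Nr2c1.

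Genes held to be regulated by the receptors, directly or not, were described by lists. For every list, here, above and below, the background beyond counting noise was 10.4% of all genes tested higher and 11% lower. Lists of abundant genes pass with smaller ratios. Of 14 SF-1 target genes, 1 was higher and 8 were lower in mouse 2 beyond counting noise, with a median of -0.10, beside 0.08 for Nr5a1. Star, with 424593 and 403177 counts, was the gene called higher, at only 0.06. Hsd3b1 stood at -0.0033 and Cyp21a1 at -0.09. Of 10 REV-ERB and ROR target genes, 4 were higher and 2 lower, with a median of 0.05. The 4 higher were Dbp (0.23), Tef (0.24) and Per2 (0.25), which led by level, and Bhlhe41 (0.32). The 2 lower were Nfil3 at -0.54 and E2f8, with 54 and 22 counts, over 2-fold lower at -1.10. Arntl, Npas2, Clock and Cry1 were within counting noise. Of 8 LXR target genes, 3 were higher and 1 lower, with a median of -0.05, but Scd1, a fatty acid desaturase gene, stood at 1.38 (120 and 318 TPM). The cholesterol carrier genes Apoe and Abca1 stood at -0.17 and 0.14.

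The PPAR target list leaned to mouse 2, with 11 of 15 genes higher and 1 lower beyond counting noise and a median of 0.31. Fabp4 stood at 0.61, Ucp1 at 0.79 and Acadm at 0.10. Of its genes 4 were also in the adipocyte marker list. Without them 7 of 11 were higher and 1 lower, with a median of 0.21. The part of fat tissue in the ratios of these 11 was not tested either.

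Genes that make, break down or carry the ligands were tested for 20 of 24 list members, of which 6 were higher and 1 lower. The fatty acid carrier Fabp4, the retinaldehyde reductase Dhrs3 (0.13) and the corticosteroid reductase Hsd11b1 (0.32) were the most abundant. Dio2, which activates thyroid hormone, stood at 1.21 (481 and 1019 counts) and Fabp5 at 1.19. Hsd11b2, which inactivates corticosteroids, stood at -2.04 with 20 and 3 counts, and Cyp26a1 and Dio1 were at 0 in both mice.

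Proteins that receptors recruit or that hold them ready for ligand were described by further lists. Of 19 coactivators 7 were higher and 2 lower, with a median of 0.07. Ddx5 (253 and 252 TPM), Ncoa4 (62.3 and 72.9 TPM) and Prmt1 (63.3 and 71.0 TPM) led them. Ppargc1a, which encodes the PPARgamma coactivator PGC-1alpha, was the coactivator over 2-fold apart, at 1.20 with 124 and 262 counts. Of 14 corepressors 2 were higher and 1 lower, with a median of 0.02, and Ncor1 stood at 51.0 and 54.0 TPM. The 8 receptor chaperones had 6 lower and 0 higher beyond counting noise, all by under 2-fold, with a median of -0.12. Hsp90ab1 (593 and 624 TPM), Hspa8 (400 and 439 TPM) and Hsp90aa1 (176 and 179 TPM) led them. Cortex markers had a median of -0.09, with 2 of 9 higher and 6 lower. Chromaffin cell markers had a median of -0.14, with 5 of 9 lower and 0 higher, led by Chga (-0.27), Chgb (-0.24) and Pnmt (-0.51). Endothelial markers (Plvap, Emcn, Kdr) had a median of 0.07, with 1 of 7 higher. Capsule and fibroblast markers (Mgp, Dcn, Col1a2) had a median of -0.10, with 2 of 7 lower. Macrophage and lymphocyte markers (Cd74, C1qa, Csf1r) had a median of 0.08, with 1 of the 7 tested higher and 1 lower. The lower one was the B cell gene Cd79a, at -2.21 with 33 and 5 counts. Among markers of neighbouring organs, Alb stood at 1.73, Foxl2 at -1.55 with 110 and 33 counts, and Aqp2 at -1.06 with 16 and 6 counts.

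**Figure D3:**
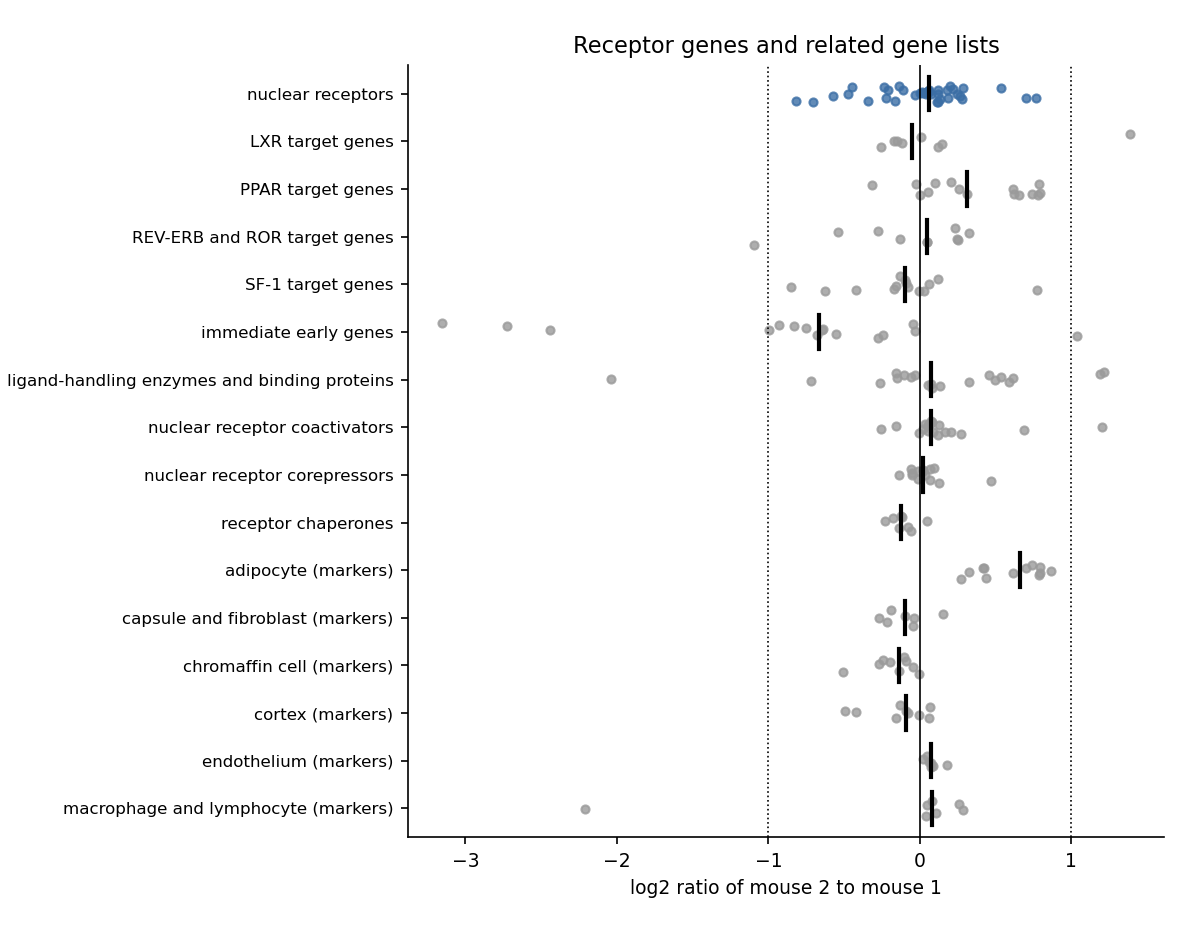
Log2 ratio of mouse 2 to mouse 1 for each tested gene (points, spread vertically at random) of the receptor family and of the related gene lists, with a bar at each median and dotted lines at 2-fold. The marker lists of hepatocytes, kidney tubule and ovary, with fewer than 5 genes tested, are left out. The immediate early list has its median at -0.66 and the adipocyte list at 0.66, while the receptors have theirs at 0.06.

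Isoforms were read from the deposited percent of the gene's TPM taken by each transcript. The 46 genes had 277 annotated transcripts, of which 213 belonged to the 33 genes at 1 TPM or more. In 28 of the 33 genes the same transcript led in both mice, and every leading transcript by mean percent was protein coding. The leader held 80% or more in both mice for 7 genes and under 50% in both mice for 9. Nr4a1-201 held 93.6% and 98.5%, Nr1d1-201 97.2% and 93.0%, and Rxra-201 at least 88.9%, while Nr0b1 and Nr0b2 had 1 annotated transcript each. The 5 genes with another leader in each mouse were Rora, Nr2f2, Thra, Nr3c1 and Nr1h3. In mouse 1 Nr1h3 was led by Nr1h3-207, a transcript without a coding product (29.4%). Nr2f2 was led there by Nr2f2-204, which has an incomplete coding sequence (37.6%). The second quantification named the same leader by mean percent for 28 of the 33 genes, the exceptions being Nr2f2, Nr3c1, Pparg, Esrrg and Nr2c1.

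Leaders of the other abundant genes were Nr5a1-201 (80.6% and 78.4%), Nr1h2-201 (34.9% and 37.6%), Nr1d2-201 (60.8% and 68.6%), Nr2f6-201 (82.8% and 67.6%), Rxrb-202 (40.0% and 47.8%), Nr4a3-201 (48.0% and 47.0%), Ppard-201 (69.8% and 70.0%), Esrra-201 (88.4% and 88.7%) and Nr2c2-201 (74.1% and 65.5%). Of the less abundant genes, Nr4a2-201 held 56.5% and 49.6%, Esr1-204 62.0% and 72.5%, Ppara-202 68.4% and 83.4%, Nr2f1-201 59.5% and 78.2% and Nr3c2-203 40.3% and 66.5%. Nr2c1-203 held 69.5% and 63.2%, Rarb-201 85.0% and 98.4%, Nr6a1-202 43.5% and 36.2% and Vdr-201 76.2% and 72.4%. Transcripts without a coding product took 20% or more in both mice for Nr1d2, Rxrb, Ppard and Nr6a1.

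Transcripts were also summed by the protein they encode, which showed several receptors as mixtures of 2 forms. Thra gave the 492-residue form TRalpha2, which does not bind thyroid hormone, at 41.9% and 41.8%, and the 410-residue receptor TRalpha1 at 43.3% and 39.0%. In TPM the forms stood at 8.08 and 9.80, and at 8.35 and 9.14. Among transcripts with a complete coding sequence the pair was thus near balance in both mice. The second quantification gave 40.7% and 40.6% against 40.8% and 37.8%. Thra-203, whose coding sequence is incomplete, was counted in neither form. It held 10.06% and 11.15%, or 10.1% and 11.9% in the second quantification, so the balance depends on where it belongs. The forms share 1111 coding bases from the start and then diverge in the hormone-binding part. The divergence is shown with the last 21 shared bases in lower case and each form's own first 60 bases in capitals (from chr11:98764386-98768217 and chr11:98764386-98764466, plus strand, the former across an intron).
Thra-201: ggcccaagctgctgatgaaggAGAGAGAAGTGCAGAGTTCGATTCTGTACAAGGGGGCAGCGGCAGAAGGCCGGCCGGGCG
Thra-202: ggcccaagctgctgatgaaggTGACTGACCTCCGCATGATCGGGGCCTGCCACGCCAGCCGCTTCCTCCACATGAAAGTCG
Thra and Nr1d1 are transcribed towards each other and overlap at their ends. Thra-201 shares 263 exon bases with Nr1d1 on the opposite strand, Thra-203 shares 130, and Thra-202 shares 0. The library kit is directional, but whether the counting used strand is not given in the sources used here. Thra and Nr1d1 had whole counts with a posterior SD of 0 in both libraries, so no sharing of reads between them was seen. What the overlap does to the share of TRalpha2 was not tested. Rarb with Top2b, Nr2c2 with Mrps25, Nr2f6 with Ocel1, Esrra with Trmt112 and Nr1i3 with Tomm40l also overlap a coding gene on the opposite strand. Of these members, only Nr2c2 had a posterior SD above 0, at 3.14 and 3.23.

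Rora gave the 523-residue form RORalpha1 at 42.1% and 44.9% and the 467-residue form RORalpha4 at 42.9% and 41.8%, so the change of leader between the mice was within a few percent. The second quantification gave 41.1% and 44.9% against 40.6% and 36.1%. The forms start in different first exons, share 1376 coding bases to their end and have the same zinc finger. Their own coding bases are in capitals before the first 21 shared bases (Rora-201 from chr9:68653943-69348152, its last 60 own bases, and Rora-202 from chr9:69290021-69348152, plus strand, both across introns).
Rora-201: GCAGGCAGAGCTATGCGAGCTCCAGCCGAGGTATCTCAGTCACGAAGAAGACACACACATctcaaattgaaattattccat
Rora-202: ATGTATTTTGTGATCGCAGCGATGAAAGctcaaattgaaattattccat

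Pparg is known for 2 proteins, PPARgamma1, found in many cells, and PPARgamma2, which has an additional N-terminal stretch and is typical of fat cells. The first quantification gave the 505-residue PPARgamma2 transcript 54.4% in mouse 1 and 73.7% in mouse 2, or 2.85 and 8.26 TPM. It gave the 475-residue form 45.6% and 12.1%, or 2.39 and 1.35 TPM. The second quantification did not show that change, with 27.2% and 31.5% for the longer form and 41.1% and 35.8% for the shorter. In TPM the second quantification gave the longer form 1.82 and 3.99, so both placed it higher in mouse 2, and it gave the shorter form 2.76 and 4.52. The 90 coding bases that only the longer form has are in capitals, before the start codon of the shorter (chr6:115422111-115439868, plus strand, across an intron).
Pparg-201: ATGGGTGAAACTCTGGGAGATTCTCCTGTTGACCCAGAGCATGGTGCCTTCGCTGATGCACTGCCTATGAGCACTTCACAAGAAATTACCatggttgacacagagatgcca

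Among the other receptors, Rara gave a 462-residue form at 53.6% and 61.2% and a 459-residue form at 42.7% and 38.8%. Rarg gave a 447-residue form at 56.0% and 44.6% and a 458-residue form at 38.7% and 26.3%. The second quantification gave these Rarg forms 37.9% and 38.2%, and 33.5% and 19.3%, so the lower share of the former in mouse 2 was not seen there. Nr1h4 was mostly the 474-residue form, at 84.1% and 74.6%, with the 484-residue form at 15.9% and 25.4%. Nr5a1-201 and a second transcript encode the same 462 residues and together took 91.7% and 93.9%. Nr3c1 gave its 792-residue form 60.8% and 68.0%, and Esr1 its 599-residue form 88.3% and 94.1%.

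Transcripts that encode a receptor without the first zinc finger were found for the COUP-TF genes. Nr2f2-202, of 281 residues, held 12.9% and 21.7% of Nr2f2, beside 37.2% and 43.1% for the 414-residue receptor, and the second quantification gave it 12.3% and 18.3%. For Nr2f1 a 273-residue form held 26.9% and 13.6% and a 263-residue form 4.42% and 5.47%. The second quantification gave the former 25.5% in mouse 1 and near 0 in mouse 2, and the latter 13.8% and 30.9%, so the split between these 2 forms depended on the quantification. Esrrg also differed between the quantifications. Its 458-residue form held 65.6% and 47.5% in the first and 16.2% and 30.4% in the second.

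**Figure D4:**
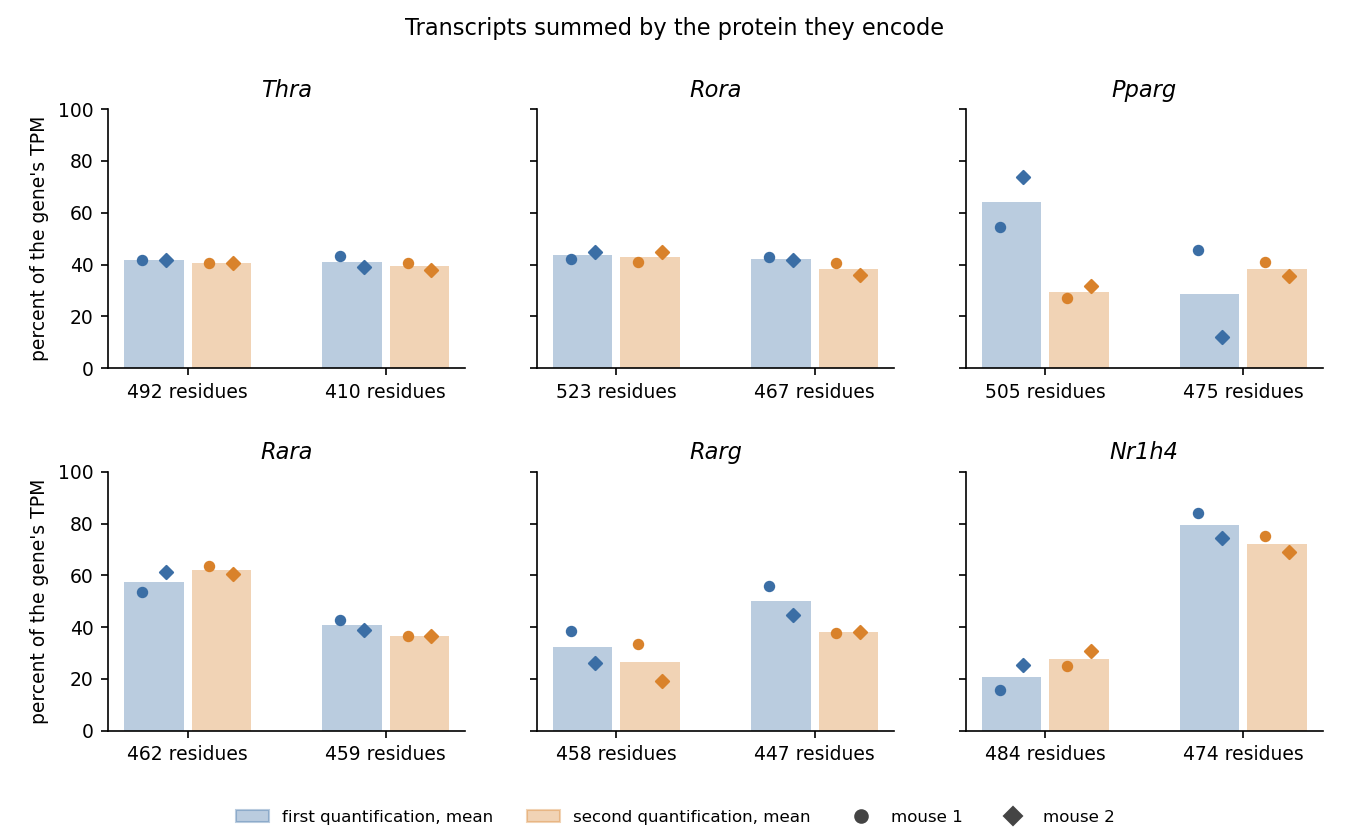
Percent of the gene's TPM taken by the 2 leading protein forms of 6 receptors, named by their length in residues. Bars are means of both mice from the first (blue) and second (orange) quantification, with a circle for mouse 1 and a diamond for mouse 2. The complete forms of Thra and Rora are near balance in both quantifications, whereas the forms of Pparg differ between them. Transcripts with an incomplete coding sequence, such as Thra-203, are in no form.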

How the data were processed

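RNA of adrenal glands from 2 mice was sequenced. Per the labels, the libraries were directional, with ribosomal RNA reduced and ERCC spike-ins. Per the file headers and deposited text files, the tables use mm10 with GENCODE M21. The aligner and quantifiers: not given in the sources used here. Deposited tables of genes and of transcripts give expected counts, estimated from transcriptome alignments, often not whole. The same deposited tables hold TPM, scaled over all features, FPKM, and the percent of its gene that each transcript takes. The second quantification is a deposited transcript table built from reads with a transcript index. Its estimated counts and TPM were summed to genes. A posterior SD of each expected count is also in the deposited gene tables.

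Levels are the mean and SD of TPM, not rescaled between mice. The share of TPM in nuclear protein-coding genes was 29.5% and 32.3%, so ratios of TPM and of scaled counts differ. Log2 ratios used expected counts with TMM libraries (edgeR 4.0.16, R 4.3.3), a prior count of 2 and a mean of at least 10 counts. The two-sided exact binomial test took rounded counts, with Benjamini-Hochberg adjustment over 17666 genes and a threshold of 0.05. The 95% intervals are exact (Clopper-Pearson). Intervals and the floor of 3 counts leave out all but counting error, and without molecular identifiers reads are not independent molecules. The ratio script was tested on simulated data. Protein forms are transcripts with identical complete coding sequences in GENCODE M21, and promoters are from RefSeq (GRCm38.p6). Other steps used Python 3.11.15, pandas 2.3.3, scipy 1.17.1 and Biopython 1.88.

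The list of members and the 18 gene lists were drawn up with earlier results of these data known, and members were then matched by symbol alone. Every member is named. Members with a mean of 10 TPM or more or beyond counting noise get values in each mouse, and of each list the 3 genes highest in TPM and those 2-fold apart are named, except for items not reported here. Any other gene named, the motifs and the sequences printed were picked with the values known. The alternatives were other scalings (total count, DESeq2 1.42.0 median-of-ratios, ERCC), filters, prior count, thresholds, FPKM, coding-gene rescaling, the second quantification and each mouse alone. Taking the leading transcript by expected count was added after seeing the data.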

Additional observations from a re-analysis of the deposited data

Results flagged for a closer look

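Genes not annotated as protein coding on the strand opposite to a receptor gene were outside the comparisons. Of these, 4 held counts above 3 in both libraries, where a count of 0 allows up to 3. Nr5a1os, opposite Nr5a1, had 15 expected counts in mouse 1 and 6 in mouse 2, beside 26273 and 25214 for Nr5a1. B130024G19Rik, opposite Nr2f2, had 122 and 127, beside 3027 and 2779 for Nr2f2. A830082K12Rik, opposite Nr2f1, had 137 and 123, beside 488 and 458 for Nr2f1. Gm44249, opposite Nr2c2, had 9 and 4. Whether the counting used strand is not given in the sources used here. The posterior SD of the count was 0 in both libraries for Nr5a1, Nr2f2 and Nr2f1. For Nr2c2 it was 3.14 and 3.23, and which genes shared those reads was not tested. With 2 mice in 1 group, a search for outlying samples or for effects that differ between groups could not be run.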

How the results depend on the processing

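The number of receptors at 1 TPM or more in both mice was 33, and 33 to 35 with the second quantification, FPKM, rescaling to nuclear protein-coding genes or a threshold of 0.5 TPM. At 5 TPM it was 27. Leaving out 1 mouse gave 33 to 34. The mean level moved by over 1 SD for 16 of 46 genes in the second quantification, 10 with FPKM, and 43 after coding-gene rescaling, all upward in the latter 2. No receptor was 2-fold apart under 6 of the 7 alternatives. With no filter on low counts 1 was higher and 1 lower, Nr2e3 (0 and 3 counts) and Esr2 (16 and 3). Members beyond counting noise numbered 15, and 15 to 19 under the alternatives, with at least 14 of the 15 shared. With total count scaling the median over all genes was 0.05, and Ppara, Ppard, Rarb and Rxra were also called higher. ERCC scaling, and a filter of 100 counts, added Nr1h2 and Nr1h4 as lower. In the second quantification Nr0b2 was no longer beyond noise, and Rarb (higher) and Nr5a2 (lower) were. No called ratio changed direction under any of the 7 alternatives. The median ratio ran from 0.04 to 0.11. The same transcript led in both mice for 28 genes, 26 in the second quantification, 22 of 27 at 5 TPM, and 30 by expected count. The leading transcript's percent moved by over 1 SD in the second quantification for 21 of 33 genes, 20 of them down. An SD of 2 mice is small where they happen to be close, so Ppard-201 counts as moved from 69.9% to 71.5%. The counts for levels and for percents also cover different genes, and so do not rank their certainty. The causes were not tested.

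No paired analysis was possible because there was 1 group. Without 1 mouse no ratio can be formed. With 2 libraries, differences between animals cannot be told apart from differences between libraries.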
